A study of Mus musculus with 12 samples.

Results

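The interleukin-1 family was followed here in the mouse proximal colon through 10 of the 55376 genes in the count table, namely the antagonist Il1rn, the ligands Il1a, Il1b and Il18, the binding protein Il18bp, and the receptor genes Il1r1, Il1r2, Il1rap, Il1rl1 and Il18r1. The set was chosen by the difference of Il1rn between the groups in these same libraries, and the other 9 genes were added as relatives by name with results of the same contrast known, so that every difference between the groups below is a description and supports nothing by itself. Of the 10 genes, 8 passed the filter on low values (at least 1 CPM, the count relative to the library total, in at least 4 libraries), which 15952 genes passed in all, and Il1a and Il1r2 did not. RNA was sequenced from animals 12 weeks of age, of which 6 were EPR fl/fl and 6 were EPR cKO, each giving its own library. The deleted gene, EPR, encodes a long noncoding RNA of epithelia and appears in the table as Smim31. Both groups carried EPR alleles with loxP sites around the promoter and exon 1, and the EPR fl/fl animals, whose genotype label reads wt, served as controls. The EPR cKO animals carried in addition the CDX2P-NLS Cre transgene, in which a human CDX2 promoter drives Cre in epithelial cells from the distal ileum through the cecum to the colon, so that other cells of the tissue keep EPR. Whole tissue of the proximal colon was used, which mixes epithelium with muscle, vessels, fat and immune cells, and in such samples fewer cells of a type and less RNA per cell cannot be told apart.

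Interleukin-1 alpha and beta, encoded by Il1a and Il1b, signal through a receptor built from the products of Il1r1 and Il1rap, which recruits MYD88 and leads to NF-kB. The Il1rn product binds the same receptor without activating it, and Il1r2 encodes a decoy that binds ligand without a signalling domain. Interleukin-18 is abundant in gut epithelium, is matured by caspase-1 in inflammasomes, acts through the receptor encoded by Il18r1 and Il18rap, and is neutralised by the secreted Il18bp product, while Il1rl1 encodes ST2, the receptor for interleukin-33 on mast cells, regulatory T cells and group 2 innate lymphoid cells.

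In the mm10 coordinates of the count table, Il1rn lay at chr2:24336853-24351494 on the plus strand, and Il1a (chr2:129299610-129309972) and Il1b (chr2:129364570-129371139) lay near each other on the minus strand of the same chromosome. Of the receptor genes, 4 formed a cluster on the plus strand of chromosome 1, in the order Il1r2 (chr1:40084698-40125231), Il1r1 (chr1:40225080-40317257), Il1rl1 (chr1:40429570-40465415) and Il18r1 (chr1:40465552-40500854). Il1rl1 and Il18r1 were direct neighbours, with fitted differences of opposite sign in EPR cKO. Il18 lay at chr9:50554827-50581840 on the plus strand, Il18bp at chr7:102014885-102018690 on the minus strand and Il1rap at chr16:26581704-26725264 on the plus strand.

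Il1rn and Il1rl1 had the largest positive differences of the family, and each has an upstream and a downstream start site, so the 250 bases before both starts are shown for each. The upstream start of Il1rn gives intracellular forms of the antagonist and the downstream start the secreted form. Of 6 Il1rn transcripts in the GENCODE annotation, 3 began at the upstream start and 3 near the downstream one, and counts per gene do not separate them. The sequences are from RefSeq on GRCm38.p6, plus strand, 5′ to 3′. Capitals mark matches on either strand to the AP-1 motif TGANTCA in Il1rn. In Il1rl1 they mark matches on either strand to the GATA motif AGATAA.
Il1rn, upstream start, chr2:24336610-24336859: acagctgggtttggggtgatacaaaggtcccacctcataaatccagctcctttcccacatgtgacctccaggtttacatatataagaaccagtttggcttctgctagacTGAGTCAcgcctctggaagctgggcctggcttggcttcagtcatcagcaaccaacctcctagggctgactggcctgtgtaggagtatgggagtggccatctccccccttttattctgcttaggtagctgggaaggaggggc
Il1rn, downstream start, chr2:24345041-24345290: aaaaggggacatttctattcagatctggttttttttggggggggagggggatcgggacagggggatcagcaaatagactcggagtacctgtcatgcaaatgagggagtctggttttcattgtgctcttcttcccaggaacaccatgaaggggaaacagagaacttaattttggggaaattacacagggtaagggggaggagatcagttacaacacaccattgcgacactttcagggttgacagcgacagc
Il1rl1, upstream start, chr1:40429320-40429569: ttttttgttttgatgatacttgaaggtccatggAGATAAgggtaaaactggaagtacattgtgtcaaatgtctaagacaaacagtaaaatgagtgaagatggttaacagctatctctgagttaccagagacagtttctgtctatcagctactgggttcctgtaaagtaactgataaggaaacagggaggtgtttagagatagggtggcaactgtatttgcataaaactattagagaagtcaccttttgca
Il1rl1, downstream start, chr1:40439379-40439628: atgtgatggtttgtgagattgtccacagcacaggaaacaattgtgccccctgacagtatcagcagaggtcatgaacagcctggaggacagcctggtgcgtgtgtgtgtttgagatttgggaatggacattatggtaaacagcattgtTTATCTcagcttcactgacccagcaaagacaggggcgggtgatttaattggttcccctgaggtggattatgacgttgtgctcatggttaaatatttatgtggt
The upstream Il1rn window held 1 AP-1 match, at position -141 from the start, and the downstream window, whose start lies 8431 bases further on, held none of the motifs searched. Both Il1rl1 windows held 1 GATA match, at -217 before the upstream start and at -103, on the reverse strand, before the downstream start 10059 bases further on. All 10 genes were found in the promoter table, with 16 windows in all, and AP-1 matches occurred in 2 genes (Il1rn and Il1a), GATA matches in 1 (Il1rl1) and matches to the NF-kB motif in 1 (Il1r1). Among all 32851 windows of this length, 6.75% held an AP-1 match, 9.99% a GATA match and 7.25% an NF-kB match. These shares are per window, while the family counts are per gene, and some genes had more than 1 window. A match describes these letters only.

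Library totals ranged from 13093904 to 33211041 counts. EPR was listed at 21.2 to 58.0 CPM in the EPR fl/fl libraries and at 0 to 0.423 CPM in the EPR cKO libraries. Libraries of 1 group differed from each other by far more than counting noise (at least 23.3 chi-square units per gene over 30 pairs), and the labels named no batch. The library of EPR cKO replicate 1 stood apart from its group. Its summed smooth muscle marker level was 9010 CPM, against 1010 to 2610 CPM in the other 5. Values without it are also given for Il1rn, Il1rl1 and those pathway genes that were called in that fit. The other tested family genes were called in no fit without 1 library. In the fit over all genes with the quasi-likelihood test of edgeR, lower levels in EPR cKO were called for 1.57% of the 15952 tested genes and higher levels for 0.884%, at an adjusted p under 0.05. The stricter thresholds of the study, an adjusted p under 0.001 together with a minimum fold change, were passed by 0.169%. The groups did not overlap in CPM for 2.47% of genes. Of the 8 tested family genes, 1 (Il1rn) was called higher, 0 were called lower, 0 passed the thresholds of the study and 0 had groups without overlap. At an unadjusted p under 0.05, which 11.1% of all tested genes passed in the higher and 7.12% in the lower direction, the family genes were Il1rn and Il1rl1 (higher) and Il18r1 (lower). DESeq2 and limma-voom also called 0 family genes lower, against 2.97% and 2.05% of all genes. By DESeq2, Il1rn passed the thresholds of the study, as did 0.484% of all genes.

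Il1rn, which encodes the interleukin-1 receptor antagonist, was higher in EPR cKO. Its level in EPR fl/fl replicates 1 to 6 was 10.3, 20.8, 12.3, 13.2, 14.9 and 18.1 CPM, and in EPR cKO replicates 1 to 6 it was 20.2, 39.3, 35.6, 35.8, 34.9 and 54.6 CPM. The groups overlapped only through EPR cKO replicate 1, which lay just under the highest EPR fl/fl library, and the other 5 EPR cKO libraries lay above every EPR fl/fl library. The mean rose from 14.9 ± 3.88 to 36.7 ± 11.0 CPM (SD, n = 6 each), a log2 fold change of 1.30 with a standard error (SE) of 0.22 and an edgeR adjusted p of 0.00679, the value on which the set was chosen. Ranked by p, Il1rn was number 11 among the genes that were higher, and 10 of the 141 genes called higher had a larger log2 fold change. Without EPR cKO replicate 1 the log2 fold change was 1.40 (SE 0.18, edgeR adjusted p = 0.000568), in a fit that called 21.8% of all tested genes. Over the leave-one-out fits, Il1rn kept a log2 fold change between 1.15 and 1.42 and was called in 12 of 12.

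**Figure D1:**
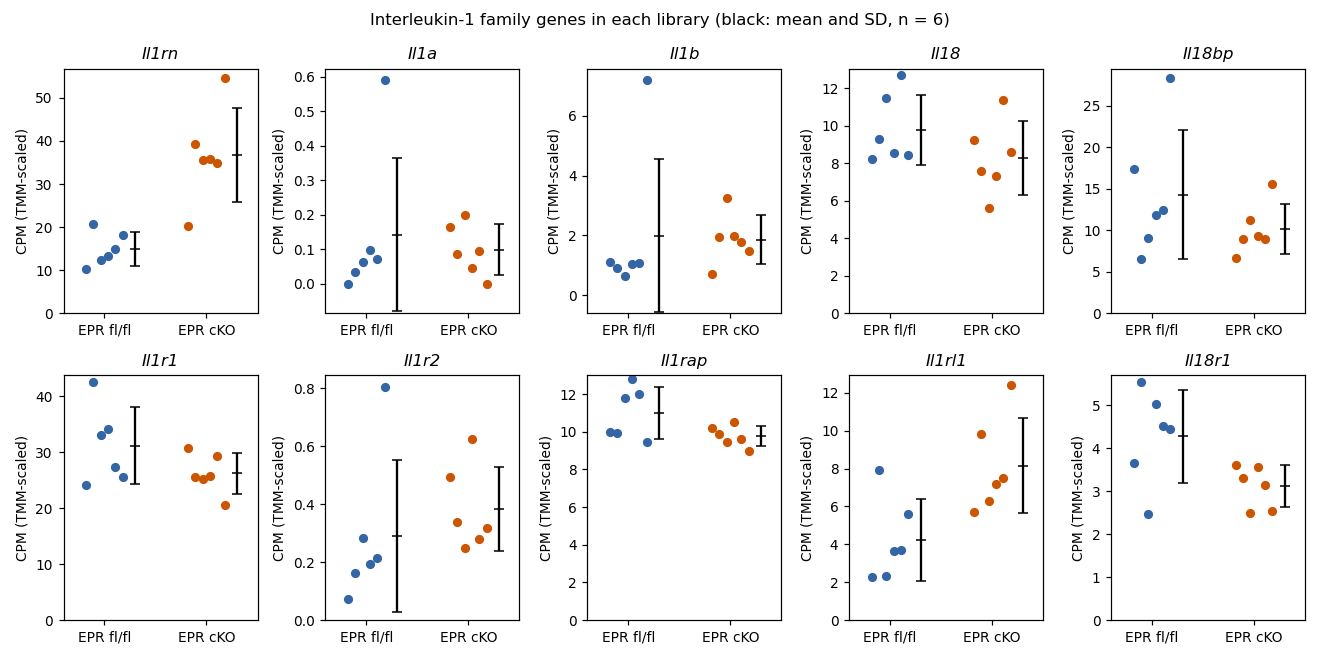
CPM (TMM-scaled) of the 10 interleukin-1 family genes in each library, 1 panel per gene with its own scale, with blue points for EPR fl/fl, orange points for EPR cKO, and black lines for the mean and SD of 6 libraries. Il1rn ran from 10.3 to 20.8 CPM in EPR fl/fl and from 20.2 to 54.6 CPM in EPR cKO, and 1 EPR fl/fl library (replicate 6) stood above the others in Il1a, Il1b and Il1r2.

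The agonist ligands that Il1rn opposes were scarce. Il1b, the cytokine released by activated myeloid cells, was at 1.10, 0.907, 0.632, 1.04, 1.07 and 7.19 CPM in EPR fl/fl replicates 1 to 6 and at 0.714, 1.95, 3.25, 1.96, 1.77 and 1.49 CPM in EPR cKO replicates 1 to 6. A single control library, EPR fl/fl replicate 6, carried the highest value of all 12, and 5 of the 6 EPR cKO libraries lay above the other 5 EPR fl/fl libraries. The log2 fold change was -0.08 (SE 0.58, edgeR adjusted p = 0.950) over all libraries and 0.98 (SE 0.32, edgeR adjusted p = 0.144) without EPR fl/fl replicate 6, so the sign rested on that library. EPR fl/fl replicate 6 also had the highest summed macrophage marker level of the 12 libraries, 532 CPM against 188 to 381 CPM elsewhere, and the part of those cells in its Il1b value was not tested. Il1a, the ligand also stored in epithelial cells, had 18 reads in all over the EPR fl/fl libraries and 13 over the EPR cKO libraries, from 0 to 0.590 CPM and from 0 to 0.200 CPM, and no difference was detectable at this depth. A count of 0, as in EPR fl/fl replicate 1 and EPR cKO replicate 6, allows up to 3 counts, or 0.219 and 0.159 CPM, for counting error only. A part of its exons (11.2%) lies under an antisense gene, Gm14023, and whether the counting used strand is not stated, so that reads of both cannot be told apart.

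Il18 and Il18bp had lower means in EPR cKO that did not pass the test. Il18 ran from 8.25 to 12.7 CPM in EPR fl/fl, with a median of 8.93, and from 5.60 to 11.4 CPM in EPR cKO, with a median of 8.11. The ranges overlapped over most of their length, and the log2 fold change was -0.24 (SE 0.17, edgeR adjusted p = 0.472), with an interval of 2 SE from -0.58 to 0.10. Il18bp ran from 6.48 to 28.4 CPM in EPR fl/fl, with a median of 12.2, and from 6.70 to 15.6 CPM in EPR cKO, with a median of 9.12. Its log2 fold change was -0.49 (SE 0.32, edgeR adjusted p = 0.420), and the highest value was again that of EPR fl/fl replicate 6, without which it was -0.17 (SE 0.26, edgeR adjusted p = 0.738).

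Among the receptors, Il1rl1 and Il18r1, the neighbouring genes for ST2 and for the ligand-binding chain of the interleukin-18 receptor, had the largest differences. Il1rl1 was at 2.26, 7.91, 2.31, 3.63, 3.72 and 5.58 CPM in EPR fl/fl replicates 1 to 6 and at 5.71, 9.85, 6.30, 7.18, 7.49 and 12.4 CPM in EPR cKO replicates 1 to 6. All 6 EPR cKO libraries lay above the EPR fl/fl median of 3.68 CPM, while EPR fl/fl replicate 2 lay inside the EPR cKO range. Controls averaged 4.24 ± 2.17 CPM and knockouts 8.16 ± 2.53 CPM (SD, n = 6 each), with a log2 fold change of 0.94 (SE 0.31) and an edgeR adjusted p of 0.140, which did not pass the test. It passed without EPR cKO replicate 1 (log2 fold change 1.00, edgeR adjusted p = 0.0382) and without EPR fl/fl replicate 2 (1.22, edgeR adjusted p = 0.0439). Without EPR cKO replicate 1, however, 21.8% of all tested genes were called, in either direction. Without EPR fl/fl replicate 2, 229 genes were called lower and 123 higher of 15875 tested.

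Il18r1 ran in the other direction. It was at 3.65, 5.54, 2.47, 5.03, 4.51 and 4.45 CPM in EPR fl/fl replicates 1 to 6 and at 3.62, 3.30, 2.50, 3.57, 3.14 and 2.55 CPM in EPR cKO replicates 1 to 6. Every EPR cKO library lay below the EPR fl/fl median of 4.48 CPM, and EPR fl/fl replicate 3 was the lowest of the 12. The log2 fold change was -0.46 (SE 0.20, edgeR adjusted p = 0.240), and the interval of 2 SE ran from -0.85 to -0.07.

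The remaining receptor genes differed less. Il1r1, the signalling receptor for interleukin-1, ran from 24.2 to 42.6 CPM in EPR fl/fl (median 30.2) and from 20.5 to 30.8 CPM in EPR cKO (median 25.6), with a log2 fold change of -0.25 (SE 0.14, edgeR adjusted p = 0.358). Il1rap, the accessory chain that Il1r1 and Il1rl1 share, was the most even of the 8, from 9.44 to 12.8 CPM in EPR fl/fl and from 8.97 to 10.5 CPM in EPR cKO, and its log2 fold change was -0.17 (SE 0.10, edgeR adjusted p = 0.375). The intervals of 2 SE ran from -0.54 to 0.03 for Il1r1 and from -0.37 to 0.03 for Il1rap. The decoy receptor Il1r2 had 39 reads over the EPR fl/fl libraries and 51 over the EPR cKO libraries, from 0.0730 to 0.805 CPM and from 0.250 to 0.624 CPM, and did not pass the filter. In a fit with no filter its log2 fold change was 0.38 (SE 0.46, edgeR adjusted p = 0.713), and that of Il1a was -0.50 (SE 0.79, edgeR adjusted p = 0.797).

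**Figure D2:**
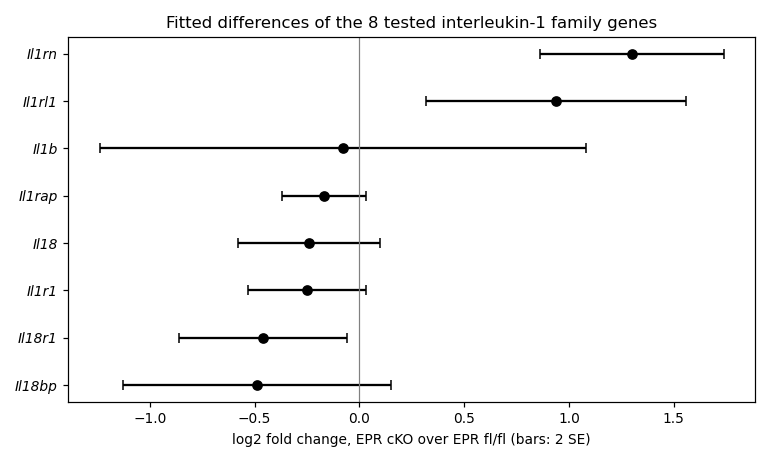
Log2 fold change of EPR cKO over EPR fl/fl (horizontal axis) for the 8 tested interleukin-1 family genes, with bars of 2 SE from the edgeR fit. Il1rn stood at 1.30 and Il1rl1 at 0.94, the other 6 lay between -0.49 and -0.08, and the bars of Il1b were the widest (SE 0.58).

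Levels can be compared between genes only per length of exon, and the order of levels within the EPR fl/fl libraries was not what chose the set. There they spanned from 0.0721 to 9.50 CPM per kb. Il18 had the highest mean (9.50 ± 1.82 CPM per kb, SD, n = 6), followed by Il1rn (5.52 ± 1.43), Il1r1 (5.10 ± 1.13), Il18bp (4.73 ± 2.59), Il1b (1.47 ± 1.88), Il1rap (1.28 ± 0.159), Il18r1 (0.887 ± 0.226), Il1rl1 (0.619 ± 0.317), Il1r2 (0.204 ± 0.185) and Il1a (0.0721 ± 0.112). Of the 9 pairs of neighbours in this order, none differed past an adjusted p of 0.05 in a two-sided exact sign-flip permutation test. The smallest p that 6 libraries allow in that test is 0.0312. Pairs at that p had an adjusted p of 0.0702 here, a value that depends on how many of the 9 pairs reached it. Il18 exceeded Il1rn, Il18bp exceeded Il1b, Il1rl1 exceeded Il1r2 and Il1r2 exceeded Il1a in 6 of 6 libraries. Il1rn and Il1r1 could not be ordered, with Il1rn higher in 3 of 6 libraries (exact p = 0.531), and Il1b exceeded Il1rap in only 1 library, its mean resting on EPR fl/fl replicate 6. In EPR cKO the mean of Il1rn was 13.6 ± 4.07 CPM per kb, the highest of the family, and that of Il18 was 8.03. Il1rl1 moved from the eighth to the sixth place, at 1.19 ± 0.370 CPM per kb.

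**Figure D3:**
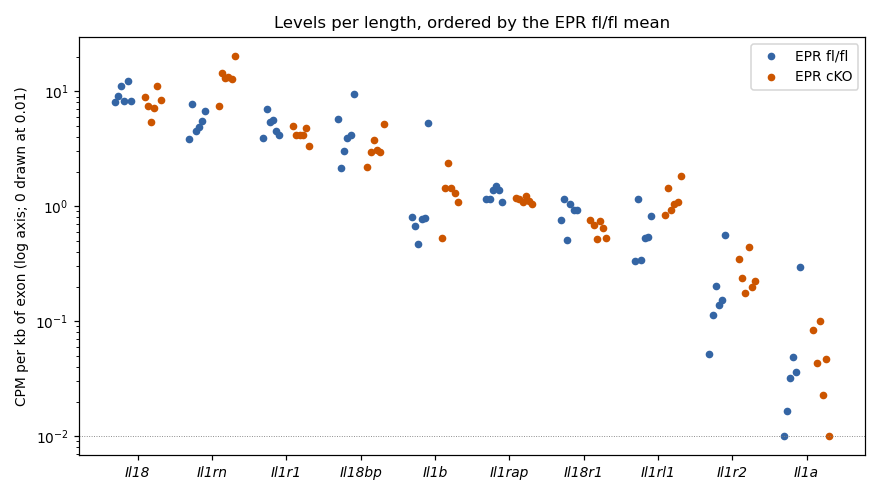
Level per kb of exon (CPM per kb, logarithmic axis) of the family genes, in the order of their EPR fl/fl means, with blue points for EPR fl/fl and orange points for EPR cKO libraries. Il18 led in EPR fl/fl with a mean of 9.50 CPM per kb and Il1rn in EPR cKO with 13.6, while Il1a was lowest in both groups (0.0721 and 0.0496).

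Ratios within a library put the antagonist beside its partners, on the scale of CPM per kb. The ratio of Il1rn to Il1r1 had a median of 1.03 in EPR fl/fl (0.842 to 1.60) and of 3.17 in EPR cKO (1.48 to 6.02), with overlap only through the highest EPR fl/fl and the lowest EPR cKO value. The ratio of Il1rn to Il1b had a median of 6.66 (1.26 to 11.5) and of 10.0 (5.49 to 18.4), and the ranges overlapped widely. The ratio of Il18bp to Il18 was 0.405 (0.237 to 1.15) against 0.417 (0.247 to 0.688). The ratios with Il1rn share the difference the set was chosen on, and none of the ratios was tested.

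Il1rn and Il1rl1 varied together between libraries of the same group, a measure the choice of the set did not use. The correlations were taken on log2 CPM. Pearson's r was 0.967 in EPR fl/fl (n = 6, exact permutation p = 0.00139, adjusted p = 0.0778 over 56 relations) with Spearman's rho of 1.00 (exact permutation p = 0.00278, adjusted p = 0.156), and r was 0.931 without the 2 libraries farthest from the median of Il1rn. In EPR cKO r was 0.858 (n = 6, exact permutation p = 0.0278, adjusted p = 0.255) and rho 0.829 (exact permutation p = 0.0583, adjusted p = 0.408), with r of 0.862 without the 2 farthest libraries. The 56 relations were all pairs of the 8 tested genes within each of the 2 groups. Of these relations, 8 had an unadjusted p under 0.05 and 0 an adjusted p under 0.05. The smallest exact p that 6 libraries allow is 0.00139 for r and 0.00278 for rho. A single pair at that limit therefore could not pass after adjustment over 56 relations. Il1r1 and Il18bp ran against each other in both groups (r of -0.865 and -0.931), although in EPR cKO r was -0.472 without the 2 farthest libraries. All of these values share library depth and the makeup of the tissue.

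**Figure D4:**
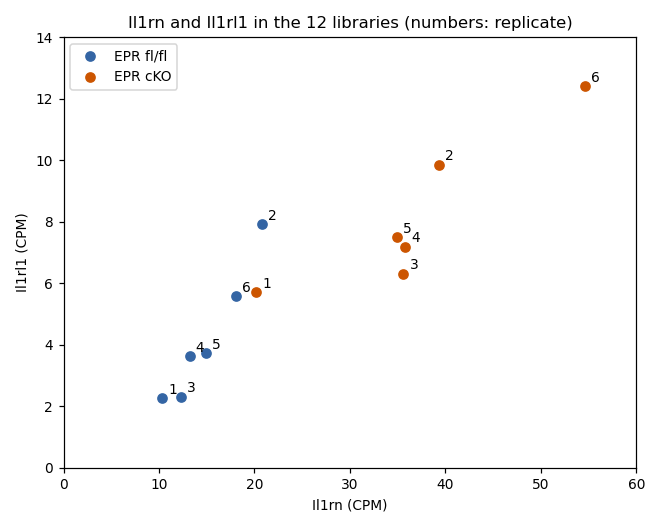
Il1rl1 (CPM, vertical axis) against Il1rn (CPM, horizontal axis) in the 12 libraries, blue for EPR fl/fl and orange for EPR cKO, with the replicate number beside each point. Within each group libraries with more Il1rn tended to have more Il1rl1 (r of 0.967 and 0.858, on log2 CPM). EPR cKO replicate 1 (20.2 and 5.71 CPM) sat among the EPR fl/fl libraries.

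Over all tested genes, those most like Il1rn after the group means were taken out, over 12 libraries on log2 CPM, were Nudt14 (r = 0.948), Pigo (0.941), Mzt2 (0.933), Depdc1b (0.927) and Tmem246 (0.923). Il1rl1 itself was most like Top3a and Dmp1 (both 0.939). Il18bp was most like Abca13 (0.980) and Coro1a (0.978), a gene of leukocytes, and Il1b most like Egr2 (0.915) and Gm4366 (0.908). The closest genes were 5430403G16Rik (0.867) and Vps41 (0.861) for Il18, 2700097O09Rik and 4732465J04Rik (both 0.925) for Il1r1, Btbd8 (0.921) and Gm16845 (0.919) for Il1rap, and 9130221F21Rik (0.849) for Il18r1. With 12 points and 15952 genes, such values are given as a description.

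The rest of the pathway was read from lists of 76 genes, 53 of which were tested, and edgeR called 0 of them at an adjusted p under 0.05. At an unadjusted p under 0.05 there were 9 of the 53, against 18.3% of all tested genes. DESeq2 called 1 (Sigirr, edgeR adjusted p = 0.0860), against 5.74% of all genes, and limma-voom called 0, against 3.15%. Their log2 fold changes had a median of 0.06, against 0.02 over all tested genes, with 21 below and 32 above 0. Of the other ligands, only Il33, the alarmin that ST2 binds, was tested, at 7.20 ± 2.95 CPM in controls and 4.76 ± 3.63 CPM in knockouts (SD, n = 6 each), a log2 fold change of -0.60 (SE 0.42, edgeR adjusted p = 0.470). Of the other receptors, 3 of 5 were tested. Sigirr, an inhibitory receptor of the family, was at 20.3 ± 2.32 and 25.9 ± 2.89 CPM (log2 fold change 0.35, SE 0.10), Il18rap, the second chain for interleukin-18, had a log2 fold change of -0.51 (edgeR adjusted p = 0.327), and Il1rl2 one of -0.25 (edgeR adjusted p = 0.651).

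Inflammasome and processing genes stayed close to 0, with 16 of 18 tested, a median log2 fold change of 0.06 and a range of -0.42 to 0.29. Casp1, the protease that matures Il1b and Il18 products, was at 149 ± 9.65 and 166 ± 31.8 CPM (log2 fold change 0.15, edgeR adjusted p = 0.496), and the sensors Naip1, Nlrp6 and Naip6 had log2 fold changes of 0.18, 0.14 and -0.01 (edgeR adjusted p = 0.274, 0.517 and 0.982). All 23 genes of receptor signalling were tested, 19 of them above 0, within -0.46 to 0.24 and with a median of 0.07. Among them Chuk, an NF-kB kinase, had a log2 fold change of 0.15 (edgeR adjusted p = 0.372), Nfkb1 of 0.12 (0.292), the NF-kB cofactor Nfkbiz of 0.06 (0.847) and Tab2 of -0.03 (0.811).

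Genes known to respond to interleukin-1 or interleukin-18 were mostly too low, and 10 of 24 were tested. Those left out were Il6, Cxcl1, Cxcl2, Cxcl5, Ccl2, Ccl20, Saa2, Csf2, Csf3, Il17a, Il22, Ifng, Il5 and Il13. Of the 10, 8 were below 0 and 2 above, with a median log2 fold change of -0.43, and the acute phase gene Saa1 was at 83.8 ± 24.9 CPM in controls and 54.2 ± 19.9 CPM in knockouts (log2 fold change -0.63, SE 0.24, edgeR adjusted p = 0.195). The prostaglandin synthase Ptges and the adhesion genes Icam1 and Vcam1 had log2 fold changes of -0.41, -0.44 and -0.35 (edgeR adjusted p = 0.438, 0.371 and 0.499). Without EPR cKO replicate 1, 7 of the pathway genes were called by edgeR, which were Il33 (log2 fold change -1.08, adjusted p = 0.0408), Sigirr (0.38, 0.0104), Aim2 (0.24, 0.0455), Pycard (0.39, 0.0473), P2rx7 (-0.54, 0.00927), Irak3 (-0.56, 0.0274) and Lcn2 (-1.10, 0.0301), of which Aim2, Pycard, P2rx7, Irak3 and Lcn2 were named after their values were seen. In the same fit 2273 genes were called lower and 1178 higher over all genes, or 21.8% of those tested.

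**Figure D5:**
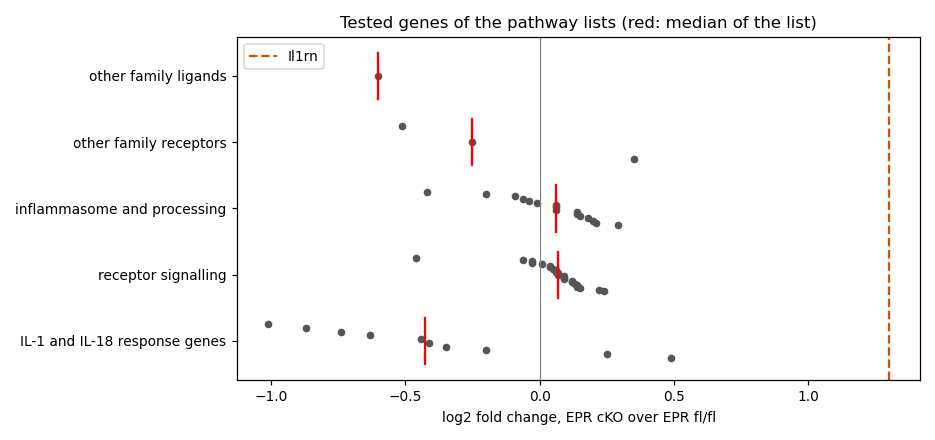
Log2 fold change of EPR cKO over EPR fl/fl (edgeR) for every tested gene of the 5 pathway lists, 1 point per gene. Red lines mark the median of each list and a dashed line marks Il1rn. Pathway genes lay between -1.01 and 0.49, and the medians of inflammasome genes (0.06) and receptor signalling genes (0.07) sat near that of all genes (0.02, not drawn).

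Of 13 scores of cell type markers, in summed CPM per list, the goblet cell and mast cell lists differed between the groups past an adjusted p of 0.05. The 12 epithelial markers, all tested, ran from 9830 to 14500 CPM in EPR fl/fl and from 11800 to 17900 CPM in EPR cKO (exact permutation p = 0.0303, adjusted p = 0.0900 over 13 scores), and the 10 smooth muscle markers from 2980 to 5190 and from 1010 to 9010 CPM (exact permutation p = 0.0887, adjusted p = 0.165). With the difference between those lists as a covariate, Il1rn had a log2 fold change of 0.89 (SE 0.19, edgeR adjusted p = 0.0312) and Il1rl1 one of 0.64 (edgeR adjusted p = 0.397). Within groups, over 12 libraries and as a description, Il1rn had an r of 0.710 with the epithelial markers, 0.673 with the neutrophil markers and -0.618 with the smooth muscle markers. Il1rl1 had its highest r, 0.672, with the neutrophil markers. Goblet cell markers, 12 of 12 tested, fell from a range of 13600 to 28800 to one of 6320 to 8780 CPM (exact permutation p = 0.00216, the smallest that 6 against 6 libraries allow, adjusted p = 0.0140).

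Markers of other cells that can express Il1rn or Il1rl1 were read in the same way. Neutrophils, which express Il1rn, were represented by 0.664 to 3.38 CPM in EPR fl/fl and 0.988 to 3.47 CPM in EPR cKO summed over 12 markers, 11 of which failed the filter, and stratified squamous epithelium by 1.69 to 3.58 and 1.81 to 3.62 CPM over 10 markers, with Sprr3 at 0 in every library. The 12 macrophage markers ran from 203 to 532 and from 188 to 345 CPM (exact permutation p = 0.210, adjusted p = 0.303), and the 12 markers of T cells and innate lymphoid cells from 43.0 to 93.3 and from 47.2 to 67.8 CPM (exact permutation p = 0.262, adjusted p = 0.332). The mast cell list, 3 of 10 tested, ran from 94.9 to 158 and from 48.5 to 86.5 CPM (exact permutation p = 0.00216, adjusted p = 0.0140), a sum made up mostly of Kit, which interstitial cells of the muscle also express and which fell from 107 to 45.2 CPM (log2 fold change -1.25, edgeR adjusted p = 0.00740). The mast cell protease Mcpt1 had means of 3.47 and 14.4 CPM (log2 fold change 2.07, edgeR adjusted p = 0.254). The direction of the list depended on the measure. The mean of log2 CPM over only the 3 tested markers, Kit, Mcpt1 and Mcpt2, gave a difference of 1.59 (exact permutation, adjusted p = 0.112). That measure changed both the summing and the markers used. Of the 9 markers other than Kit, 6 had a higher mean in EPR cKO, and their sum, taken after the values were seen and not tested, ran from 1.72 to 25.8 CPM in EPR fl/fl (median 4.59) and from 5.88 to 51.9 CPM in EPR cKO (median 20.3). The part of these cells in the Il1rn and Il1rl1 values was not tested. The other lists, by exact permutation with adjustment over the 13 scores, had log2 differences of 0.42 for absorptive colonocytes (adjusted p = 0.0900), -0.43 for endothelium (adjusted p = 0.268), -0.49 for fibroblasts (adjusted p = 0.332) and -1.70 for adipocytes (adjusted p = 0.0900).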

How the data were processed

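Proximal colon RNA of 12 mice, 6 per group, was sequenced (13093904 to 33211041 counts per library). Per the study's methods, the authors prepared stranded total RNA libraries depleted of ribosomal RNA, trimmed the paired reads and mapped them with STAR 2.5.3a to mm10. The submitters' processing notes name featureCounts, without saying whether strand was used. The authors deposited raw counts per gene, not normalized, and all 12 count columns were matched to samples by name, with 0 left without a sample. The filter of the study, at least 1 CPM in at least 4 libraries, was applied (15952 of 36694 genes with any count kept), and libraries were scaled by TMM. Groups were compared in R 4.3.3 with the quasi-likelihood test of edgeR 4.0.16, adjusted by Benjamini-Hochberg over all tested genes. The scripts were tested on simulated data. Alternatives were other scalings and filters, DESeq2 1.42.0, limma-voom (limma 3.58.1), a replicate block, a tissue composition covariate and leaving out each library. Single values were compared by two-sided exact permutation tests in SciPy 1.17.1. The labels and methods give 1 animal per library, so p-values measure the spread between animals.

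The members and lists were chosen with earlier results of these data known. Named genes were all members, EPR, the called genes of each pathway list or otherwise up to 4 with the highest mean CPM, the 5 genes most like Il1rn and 2 most like each other tested member, and at most 2 per marker list. Of the 2 genes most like Il18r1, 1 is not reported here. Reads shared with near-identical or antisense genes could shift Il1a (11.2% of exon length), Il1rap (4.10%) and Il18bp (2.64%). Promoters came from RefSeq, GRCm38.p6.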

Additional observations from a re-analysis of the deposited data

Results flagged for a closer look

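In 7 of 46 sets of 6 values, 1 library lay far from the other 5 by Dixon's criterion, where chance gives about 1 in 20, or 2.3 sets. EPR fl/fl replicate 6 did so for 3 family genes, with Il1b at 7.19 CPM against 0.632 to 1.10 in the others, Il1a at 0.590 CPM against 0 to 0.0973, and Il1r2 at 0.805 CPM against 0.0730 to 0.285. Il1a and Il1r2 rested on 11 and 15 reads there, and the library also had the highest summed macrophage markers. EPR cKO replicate 1 did so for 3 marker lists, with summed levels of 9010 CPM for smooth muscle (1010 to 2610 in the others), 3100 CPM for fibroblasts (469 to 1450) and 1360 CPM for adipocytes (80.9 to 445), and it was the EPR cKO library with the least Il1rn and Il1rl1. The EPR gene itself was at 0.423 CPM in EPR cKO replicate 2, against 0 to 0.134 CPM in the other EPR cKO libraries.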

How the results depend on the processing

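Il1rn was called higher in all 8 alternatives (log2 fold change 0.89 to 1.29) and in 12 of 12 fits without 1 library. The count of family genes called higher was 1, became 2 with the replicate block and ran from 1 to 2 over the fits without 1 library. The added gene was Il1rl1 (block log2 fold change 1.03, edgeR adjusted p = 0.0284). The count past the thresholds of the study was 0, became 1 with DESeq2 and ran from 0 to 1 without 1 library. Replicate numbers showed no clear pairing of the samples. Same-numbered libraries correlated at -0.242 to 0.340, and 2 of 6 correlated best with their own number. The makeup of the tissue also enters these correlations, so they cannot show whether same-numbered samples shared more than a number. Over all genes, 251 were called lower and 141 higher. DESeq2 called 473 and 440, total counts 247 and 39. Higher calls were 54 with no filter, 67 with the block and 82 with the composition covariate. Without 1 library lower calls ran from 145 to 2273 and higher calls from 31 to 1178, both largest without EPR cKO replicate 1. The cause was not tested.

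Signs turned under some settings, from main log2 fold changes of -0.08 for Il1b, -0.01 for Naip6, 0.15 for Casp1 and 0.06 for Nfkbiz. Il1b was 0.47 with limma-voom, 0.42 with the block and -0.31 to 0.98 without 1 library. Naip6 was 0.02 with limma-voom, 0.01 with the block and -0.08 to 0.10 without 1 library. Casp1 was -0.12 with the composition covariate, and Nfkbiz -0.04 to 0.15 without 1 library. The scores were also taken as mean log2 CPM over only the markers past the filter, in place of the sum over all markers. The mast cell score was then 1.59, over 3 of 10 markers (exact permutation, adjusted p = 0.112). The neutrophil score was then -0.13 and was the value of 1 gene, Csf3r, so it is not a score of the 12 markers. Without 1 library the neutrophil score ran from -0.19 to 0.28 and the squamous score from -0.02 to 0.20. Depth limits Il1a, Il1r2 and Il1b most.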
